A study of Sus scrofa domesticus with 2 samples.

Results

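Basement membranes are thin sheets of matrix that lie under endothelium and around pericytes and smooth muscle cells. Laminins, which are trimers of an α, a β and a γ chain, and type IV collagen each form a network there, and nidogen and perlecan bind both networks together. Collagens XV and XVIII, the multiplexins, carry glycosaminoglycan chains and sit in or beside these sheets, and collagen VIII is a short-chain collagen of the vessel wall beneath the endothelium. The genes described here are COL4A1, COL4A2, COL8A1, COL15A1, COL18A1, LAMA4, LAMB1, LAMC1, NID1 and HSPG2, taken by name. Of these 10 genes, 9 were among the 22804 features of both count matrices, and COL4A1, the partner chain of COL4A2, was not analysed here.

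The levels were read in 1 scRNA-seq library of cultured lung ECs and 1 library of cultured aorta ECs from the domestic pig. Both were primary endothelial cells (ECs) released with collagenase, from a perfused lung and from the aorta next to it, and grown in medium with 10% fetal calf serum. No sort for endothelial cells is described for either isolation, so cultures of this kind can hold other cells of the vessel wall. Pigs used for the scRNA-seq tissues were crosses of Landrace, Duroc and Large White aged 6 months. The genotype and number of the animals behind the cultures are not given in the sources used here, and no cell of either group carried a treatment. With 1 library per tissue there is no replicate, so no test between samples was possible, and tissue, animal, isolation and library cannot be told apart.

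After cells with 200 or fewer detected genes or 30% or more mitochondrial UMIs had been left out, 5709 of 5946 lung cells and 955 of 1185 aorta cells remained, with medians of 9463 and 52080 UMIs (unique molecular identifiers, one per captured transcript). Cells of each library were clustered without the 9 genes, without other matrix genes and without the naming markers. Endothelial-like cells, which held 10 of the 11 endothelial markers counted in each of their clusters, numbered 4957 in 8 lung clusters and 634 in 4 aorta clusters. Collagen-high cells, in which COL1A1 and COL1A2 of fibrillar collagen I were both raised, numbered 336 in lung clusters 7 and 10 and 143 in a single aorta cluster. The libraries shared 5 barcodes once the library suffix was removed.

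PECAM1, the junction protein that marks endothelium, stood at 1592 UMIs per 1000000 UMIs (CPM) in lung and 1293 CPM in aorta endothelial-like cells, and at 150 and 14.2 CPM in the collagen-high cells. COL1A1 stood at 20.1 and 24.4 CPM in the endothelial-like cells and at 5375 and 4913 CPM in the collagen-high cells. The endothelial list summed to 2874 and 2577 CPM in the endothelial-like cells and to 381 and 120 CPM in the collagen-high cells, where all 11 markers had UMIs in the lung and 10 of 11 in the aorta, KDR being at 0. In the other direction, all 6 fibroblast markers had UMIs in the endothelial-like cells, with sums of 43.5 CPM in the lung and 201 CPM in the aorta. The mural list summed to 3.40 and 3.01 CPM in endothelial-like cells and to 322 and 321 CPM in collagen-high cells. Most of the collagen-high sums came from PDGFRB and CSPG4, at 136 and 175 CPM in the lung and 129 and 183 CPM in the aorta. Of the 6 mural markers, 2 were raised in each collagen-high cluster, and RGS5 was at 0 in the aorta collagen-high cells. Lung cluster 7 was led by ACTA2, PDGFRB and CSPG4, markers of contractile and mural cells, more than by fibroblast markers, while cluster 10 was led by WT1, COL3A1 and COL1A1. For this reason the levels of the lung collagen-high clusters are given beside the pooled value. Immune markers summed to at most 3.61 CPM in the 4 classes compared.

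Collagen-high cells were set against endothelial-like cells to ask which cell class of each culture carried the transcripts of each basement membrane component. COL15A1, COL18A1 and COL4A2 were at least 2-fold higher in the collagen-high cells of both libraries. LAMA4 was at least 2-fold lower in both, and COL8A1 passed the same line in the aorta alone. LAMB1, LAMC1 and NID1 leaned toward the collagen-high cells and HSPG2 toward the endothelial-like cells, all by less than 2-fold. Levels are CPM of the UMIs summed over a class with exact 95% Poisson intervals, and folds carry the exact 95% binomial interval of both counts. These intervals cover counting error only. A feature was counted as past the fold at 2-fold or more with at least 20 CPM in the higher class.

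In the lung, 3 of the 9 genes were past the fold upward in collagen-high cells and 1 downward, where 6.67% of the 6057 features with at least 20 CPM in 1 of the classes were past it upward and 9.74% downward. In the aorta, 3 of the 9 were past it upward and 2 downward, against 7.92% and 12.7% of 6301 features. The median log2 fold of the 9 genes, with 1 CPM added, was 0.69 in the lung and 0.73 in the aorta, beside -0.00 and 0.03 over all features at the same floor. The direction was the same in both libraries for each of the 9 genes.

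**Figure D1:**
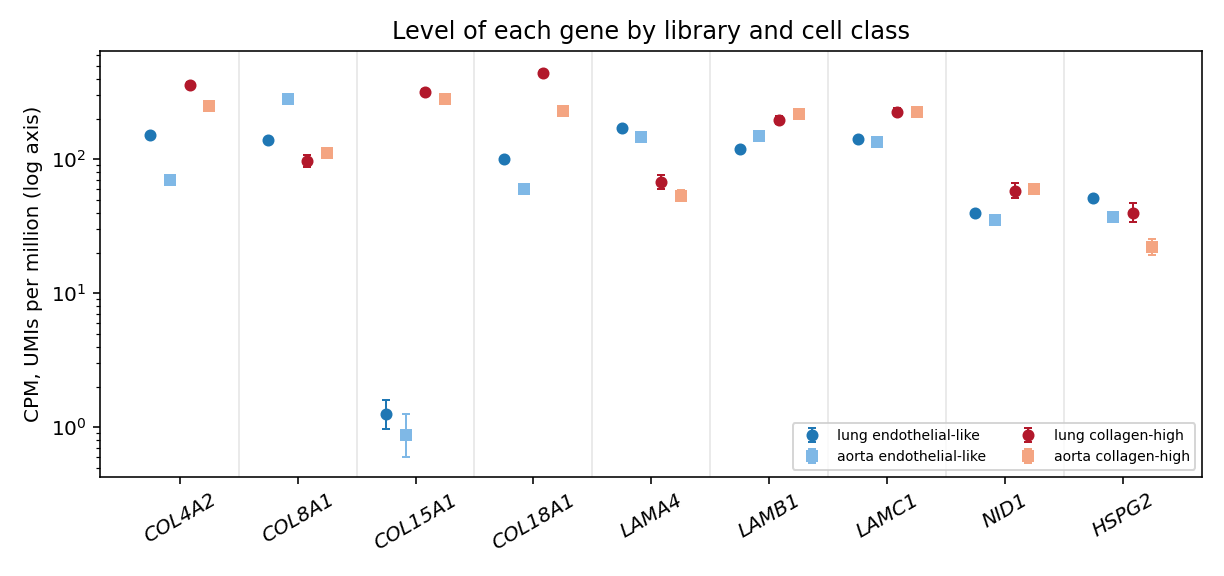
Level of each of the 9 genes in CPM on a log axis, by library and cell class, with exact 95% Poisson intervals that cover counting error only. COL15A1 is near 1 CPM in endothelial-like cells and near 300 CPM in collagen-high cells, while LAMA4 and COL8A1 are higher in the endothelial-like cells of both libraries.

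COL15A1, the core protein of collagen XV, had the widest difference. It stood at 1.25 CPM (64 UMIs, interval 0.964 to 1.60) in lung endothelial-like cells and at 318 CPM (1231 UMIs, 300.1 to 336) in lung collagen-high cells. In the aorta it stood at 0.879 CPM (31 UMIs, 0.597 to 1.25) and at 281 CPM (2449 UMIs, 269.9 to 292). The collagen-high cells were thus 254-fold higher in the lung (interval 197 to 331) and 320-fold higher in the aorta (225 to 471). Both folds rest on these 64 and 31 UMIs of endothelial-like cells, and whether those UMIs arose in the cells themselves was not tested. Folds over so low a level depend strongly on where those UMIs arose. Lung clusters 7 and 10 held 309.7 and 339.7 CPM, and their ratio, 1.10 (0.966 to 1.24), spanned 1. Among aorta cells with under 5000 detected genes the log2 fold of COL15A1 was 7.08 in place of 8.32, and it was 7.08 or more under every alternative run in either library. Every endothelial-like cluster lay between 0.638 and 2.53 CPM in the lung and between 0.466 and 1.81 CPM in the aorta.

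The low COL15A1 counts of endothelial-like cells were set beside the collagen I counts in the same cells. This comparison takes the endothelial-like level over the collagen-high level to be 1 ratio for all genes. In the aorta that ratio differed with the gene. COL3A1, another fibrillar collagen, stood at 84.4 CPM in aorta endothelial-like and 408 CPM in aorta collagen-high cells. Its lung values were 2.03 and 514 CPM. The collagen I shares below are therefore only a rough scale, above all in the aorta. COL1A1 in lung endothelial-like cells was 0.374% of its level in lung collagen-high cells, and COL15A1 at that share would stand at 1.19 CPM, beside the 1.25 CPM measured. In the aorta the share was 0.496%, which gives 1.39 CPM beside 0.879 CPM measured. For each of the other 8 genes the endothelial-like level was 52.4-fold or more above the level set by that share. COL1A2, taken in place of COL1A1, gave shares of 0.347% and 0.941%, COL15A1 levels of 1.10 and 2.64 CPM, and 27.6-fold or more for the other 8 genes. After cells had been thinned to 5000 UMIs, COL15A1 had a UMI in 0.433% of 4854 lung endothelial-like cells (Clopper-Pearson interval 0.268% to 0.661%) and in 0.317% of 630 aorta endothelial-like cells. The measured lung level has an interval that holds the level set by either collagen I gene, and the aorta level lies below both. Whether these few UMIs came from free RNA, from cells placed in the wrong class or from the cells themselves was not tested. In 80 lung immune-like cells its share was 2.50% (0.304% to 8.74%), but 86.7% of the immune-like cells had a PECAM1 UMI, so they are no blank for this gene. In collagen-high cells the thinned share was 77.5% of 315 lung cells (72.4% to 82.0%) and 76.8% of 138 aorta cells (68.9% to 83.6%).

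COL18A1 encodes collagen XVIII, whose C-terminal fragment is endostatin. Its level was 99.7 CPM (97.0 to 103) in lung endothelial-like and 440 CPM (419 to 461) in lung collagen-high cells, and 59.7 CPM (57.1 to 62.3) and 229.8 CPM (219.8 to 240.0) in the aorta. The collagen-high cells were 4.41-fold higher in the lung (4.17 to 4.66) and 3.85-fold higher in the aorta (3.62 to 4.10). Unlike that of COL15A1, its endothelial-like level was far above the one set by the collagen I shares. At 5000 UMIs, 37.2% of lung and 23.3% of aorta endothelial-like cells had a UMI of COL18A1. Cluster 10 held more of it than cluster 7, at 539 against 405 CPM, a ratio of 1.33 (1.202 to 1.48).

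COL4A2, the α2 chain that joins α1 chains in the common type IV collagen trimer, was at 150.6 CPM (147 to 154) in lung endothelial-like cells and 358 CPM (339 to 377) in lung collagen-high cells. The aorta values were 69.7 CPM (67.0 to 72.5) and 249 CPM (239 to 260.1). The fold was 2.38 in the lung (2.24 to 2.52) and 3.58 in the aorta (3.37 to 3.79). In the lung, cluster 7 was the higher of the collagen-high clusters, at 373 against 314 CPM. Among aorta cells with under 5000 detected genes, of which 21 were collagen-high, the log2 fold was 2.48 in place of 1.84. The partner gene COL4A1 lies head to head with COL4A2 on chromosome 11 of Sscrofa11.1, in the RefSeq annotation, and their divergent starts are 133 bases apart when the second of the COL4A2 transcript models is taken. The first COL4A2 model starts inside COL4A1, and since its first exon ends at 76996906 and its next begins at 76998054, the stretch lies in an intron of that model. It is shown as the stretch between the divergent starts. The COL4A2 counts are per gene and were not assigned to either model or start. It runs from chr11:76997410-76997542 on the plus strand, with capitals for the motifs named below.

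COL4A1 to COL4A2: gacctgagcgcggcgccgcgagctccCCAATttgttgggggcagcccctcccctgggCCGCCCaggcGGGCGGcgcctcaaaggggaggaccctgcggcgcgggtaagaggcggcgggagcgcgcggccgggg

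LAMA4, the α4 chain of the laminins typical of endothelial basement membranes, went the other way. It was at 169.9 CPM (166 to 173) in lung endothelial-like cells against 68.1 CPM (60.1 to 76.8) in lung collagen-high cells, and at 146 CPM (142 to 150.2) against 53.3 CPM (48.6 to 58.4) in the aorta. The endothelial-like cells were 2.49-fold higher in the lung (2.21 to 2.83) and 2.74-fold higher in the aorta (2.49 to 3.02). Both lung collagen-high clusters, at 72.2 and 56.8 CPM, were below all 8 endothelial-like clusters, which ran from 145 to 210.2 CPM. In the aorta the lowest endothelial-like cluster was at 126 CPM.

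Endothelial transcripts moved with LAMA4 inside the lung collagen-high cells. The 121 lung collagen-high cells with a PECAM1 UMI held 89.0 CPM of LAMA4 and the 215 cells without one held 51.8 CPM, a ratio of 1.72 (1.34 to 2.21). PECAM1 in lung collagen-high cells was 9.45% of its endothelial-like level, and LAMA4 at that share would stand at 16.1 CPM of the 68.1 CPM measured. CDH5 in its place gave 11.5% and 19.6 CPM. The share differed with the marker, since ERG was at 30.7 CPM in lung collagen-high and 128 CPM in lung endothelial-like cells. In the aorta ERG was at 47.4 and 149 CPM, while the PECAM1 share was 1.10%. Aorta collagen-high cells with a PECAM1 UMI held 48.5 CPM of LAMA4 and cells without one 59.5 CPM. Without the PECAM1-bearing cells the log2 fold was -1.71 in the lung, beside -1.32 with them.

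COL8A1, the α1 chain of collagen VIII, was also higher in endothelial-like cells, and by more in the aorta. It was at 139.6 CPM (136 to 143) in lung endothelial-like and 96.5 CPM (87.0 to 107) in lung collagen-high cells, and at 279.6 CPM (274 to 285) and 112 CPM (105 to 119) in the aorta. The endothelial-like cells were 1.45-fold higher in the lung (1.30 to 1.61) and 2.49-fold higher in the aorta (2.33 to 2.66). In the lung the endothelial-like clusters, from 103 to 221 CPM, came close to the 99.8 CPM of cluster 7 and the 87.1 CPM of cluster 10. The aorta clusters were far apart, with 230.8 CPM as the lowest endothelial-like value against 112 CPM.

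LAMB1 and LAMC1, the β1 and γ1 chains shared by many laminin trimers, were both modestly higher in collagen-high cells. LAMB1 stood at 119 CPM in lung endothelial-like and 196 CPM in lung collagen-high cells, and at 149 and 216 CPM in the aorta. Its folds were 1.65 in the lung (1.52 to 1.78) and 1.45 in the aorta (1.37 to 1.53). LAMC1 stood at 140.5 and 227 CPM in the lung and at 135 and 224 CPM in the aorta, which gave folds of 1.62 (1.505 to 1.73) and 1.66 (1.57 to 1.75). Lung clusters 7 and 10 held 192 and 208 CPM of LAMB1 and 223 and 237 CPM of LAMC1. The α4 chain thus ran opposite to the β1 and γ1 chains with which it can assemble, in both libraries.

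The linker genes also differed by less than 2-fold. NID1, which encodes nidogen-1, stood at 39.6 CPM in lung endothelial-like and 58.3 CPM in lung collagen-high cells, and at 35.4 and 59.6 CPM in the aorta. Its fold was 1.47 (1.28 to 1.69) in the lung and 1.68 (1.52 to 1.87) in the aorta. The lung value came from cluster 7, at 64.1 CPM, since cluster 10 was at 42.1 CPM and 1.06-fold (0.767 to 1.44) the endothelial-like level. HSPG2, which encodes perlecan, stood at 51.0 and 40.0 CPM in the lung and at 37.0 and 22.1 CPM in the aorta. It was 1.27-fold (1.08 to 1.51) and 1.67-fold (1.43 to 1.95) higher in the endothelial-like cells. Within the lung, cluster 7 was 0.873-fold (0.725 to 1.04) and cluster 10 was 0.538-fold (0.357 to 0.779) the endothelial-like level.

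**Figure D2:**
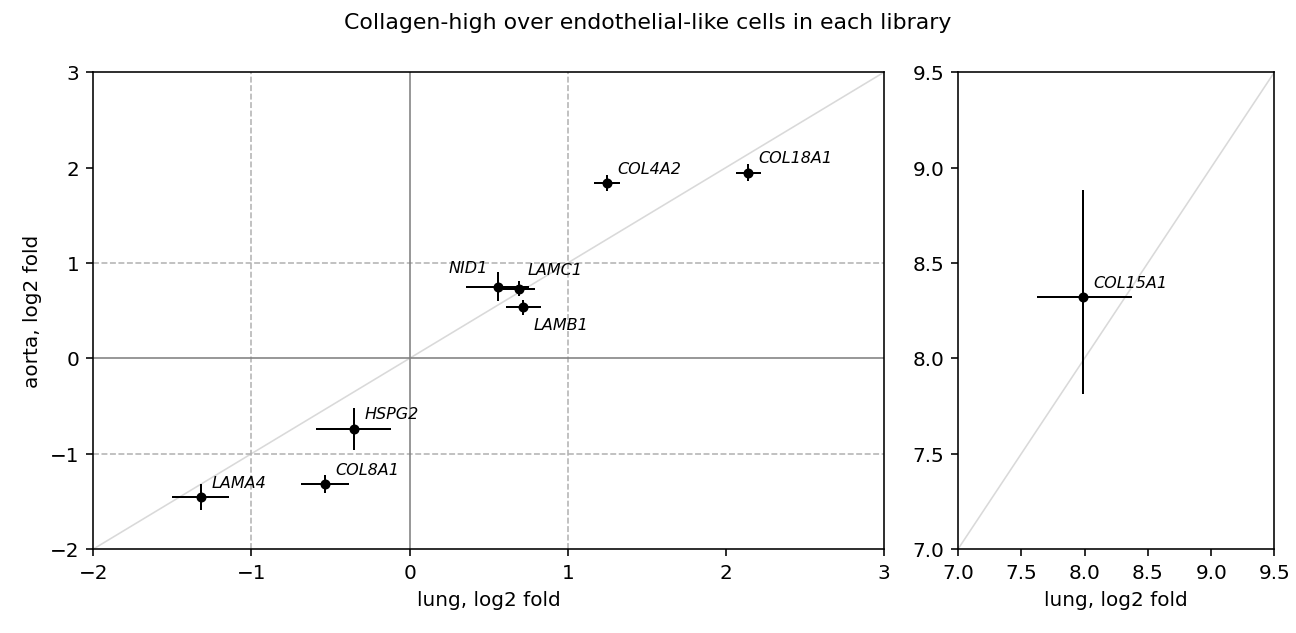
Log2 fold of collagen-high over endothelial-like cells in the lung (horizontal axis) and in the aorta (vertical axis), one point per gene, with exact 95% intervals for counting error. Dashed lines mark 2-fold, the grey diagonal marks equal folds, and COL15A1 has a panel of its own because its log2 fold is 7.99 in the lung and 8.32 in the aorta. All 9 genes lie on the same side of 0 in both libraries.

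The sequence just before the RefSeq start is shown for COL15A1, which had the widest difference, and for LAMA4 and COL8A1, which were past the fold toward endothelial-like cells in at least 1 library. Each window is 250 bases long on Sscrofa11.1 and ends at the base before the first annotated transcript start. Capitals mark the GC box GGGCGG, the CCAAT box CCAAT, the TATA box TATAAA and the AP-1 site TGACTCA, searched on both strands. COL15A1 spans 240718128 to 240829188 on chromosome 1, plus strand, and its window is chr1:240717878-240718127. LAMA4 spans 78071990 to 78224564 on chromosome 1, minus strand, and its window is chr1:78224565-78224814. COL8A1 spans 159216138 to 159374718 on chromosome 13, minus strand, and its window is chr13:159374719-159374968. Sequences are written 5′ to 3′ in the direction of the gene.

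COL15A1: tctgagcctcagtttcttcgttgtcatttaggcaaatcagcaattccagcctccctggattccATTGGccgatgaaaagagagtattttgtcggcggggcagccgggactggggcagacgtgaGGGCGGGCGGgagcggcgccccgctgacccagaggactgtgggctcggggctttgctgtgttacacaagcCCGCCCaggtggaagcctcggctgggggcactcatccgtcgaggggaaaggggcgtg
LAMA4: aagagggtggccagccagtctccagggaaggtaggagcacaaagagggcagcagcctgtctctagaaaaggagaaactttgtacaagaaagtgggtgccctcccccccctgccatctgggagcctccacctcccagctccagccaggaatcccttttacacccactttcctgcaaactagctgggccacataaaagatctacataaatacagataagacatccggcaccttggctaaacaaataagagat
COL8A1: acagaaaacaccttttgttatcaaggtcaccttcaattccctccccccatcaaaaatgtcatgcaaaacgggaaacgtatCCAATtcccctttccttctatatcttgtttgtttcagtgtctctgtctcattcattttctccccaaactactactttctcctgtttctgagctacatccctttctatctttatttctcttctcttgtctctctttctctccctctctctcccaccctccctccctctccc

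The LAMA4 and COL8A1 windows had 51.6% and 43.2% G and C, with 1 and 2 CpG dinucleotides, against a median of 57.6% and 12 CpG over 19556 protein-coding genes. The COL15A1 window had 62.4% and 17 CpG, and the windows of COL18A1, LAMC1 and HSPG2 had 84.4%, 78.0% and 83.2%. COL18A1 has 5 distinct annotated starts, and COL4A2, COL8A1, NID1 and HSPG2 have 2 each. Only the first start of each gene has a window here. A GC box, found in 45.9% of all windows, was present in 6 of the 10 windows, with 8 matches in COL18A1, 9 in HSPG2 and none in COL4A2, COL8A1, LAMA4 or NID1, which lean in both directions. The COL4A2 window, chr11:76996635-76996884, precedes its first model and lies inside COL4A1, away from the shared stretch. The COL4A1 window, chr11:76997410-76997659, covers that stretch and counts among the 6, though COL4A1 levels were not analysed. The CCAAT box, in 31.9% of all windows, was present in 3 of 10. The TATA box, in 9.77%, was in 0 of 10, and the AP-1 site, in 2.90%, was in the LAMB1 window. The COL4A1 to COL4A2 stretch held 2 GC boxes and 1 CCAAT box, which occur in 39.1% and 21.5% of the last 133 bases before all starts. A match is a run of letters, and binding was not measured.

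Shares of cells at equal depth showed the same order as the levels for the genes past the fold. At 5000 UMIs per cell, with 103 lung and 4 aorta endothelial-like cells and 21 lung and 5 aorta collagen-high cells too shallow to enter, COL4A2 had a UMI in 50.2% of lung endothelial-like cells (48.8% to 51.6%) and 78.1% of lung collagen-high cells (73.1% to 82.5%). The aorta shares were 28.1% (24.6% to 31.8%) and 73.2% (65.0% to 80.4%). LAMA4 had a UMI in 55.4% (54.0% to 56.8%) and 23.8% (19.2% to 28.9%) of these cells in the lung, and in 52.5% (48.6% to 56.5%) and 23.9% (17.1% to 31.9%) in the aorta. COL8A1 had one in 45.4% and 33.0% in the lung and in 68.1% and 40.6% in the aorta.

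Before thinning, the aorta shares were higher, with COL4A2 in 89.1% and 97.2% and LAMA4 in 97.0% and 86.7% of the endothelial-like and collagen-high cells, and HSPG2 in 82.6% and 65.7%. In the lung the unthinned shares were 72.5% and 90.8% for COL4A2 and 76.7% and 44.3% for LAMA4. The 80 lung immune-like cells at the same thinned depth had a UMI of COL4A2 in 38.8% and of LAMA4 in 25.0%. These immune-like cells also held PECAM1 at 1134 CPM and summed to 1838 CPM over the endothelial list, so they are no clean blank for genes of endothelial cells. At 25.0%, their LAMA4 share was close to the 23.8% of lung collagen-high cells, and their COL8A1 share, 25.0%, lay below the 33.0% there.

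**Figure D3:**
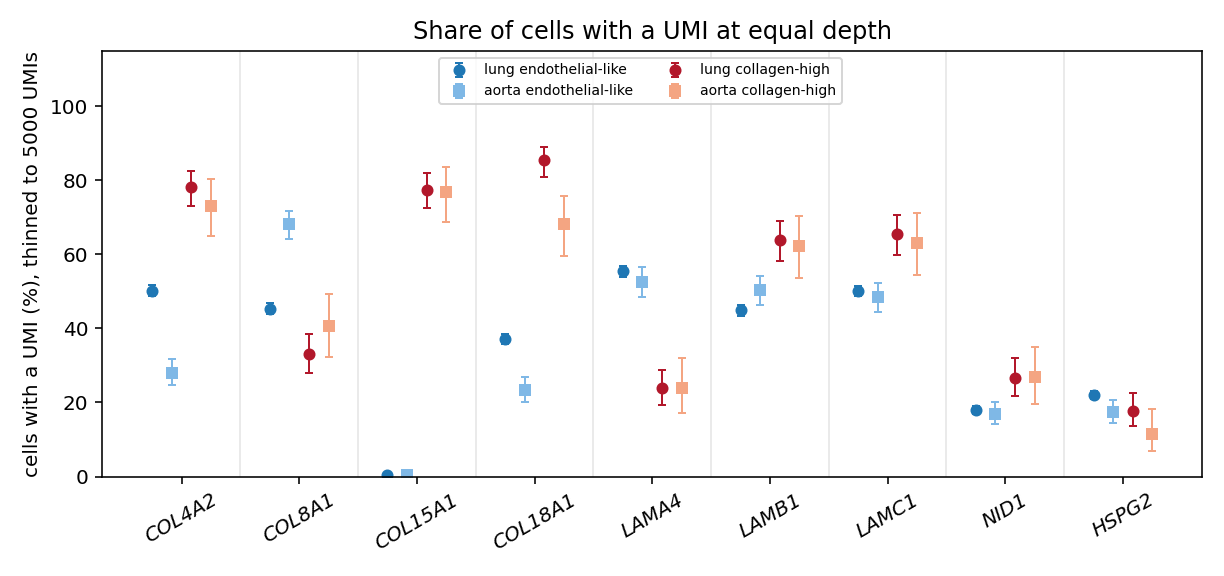
Share of cells with a UMI of each gene, in percent, after each cell was thinned to 5000 UMIs, by library and class, with Clopper-Pearson 95% intervals. COL15A1 is at 0.433% and 0.317% of endothelial-like cells and near 77% of collagen-high cells, and the LAMA4 shares of collagen-high cells are 23.8% in the lung and 23.9% in the aorta.

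Across the endothelial-like clusters most of the 9 genes varied little. In the lung, LAMC1 ran from 134 to 152 CPM, LAMB1 from 110.2 to 132 CPM and COL18A1 from 95.1 to 116 CPM over the 8 clusters. COL8A1 varied most among genes other than COL15A1, from 103 CPM in the cluster led by TOP2A and CENPF to 221 CPM in the cluster led by SLPI, CRYAB and CFD, a 2.14-fold range (1.95 to 2.34). The aorta gave the same gene its widest range, from 230.8 CPM in the cluster led by CALCRL and PCDH17 to 346 CPM in the cluster led by CXCL10, CCL5 and SLPI, 1.498-fold (1.42 to 1.58).

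These clusters, which both have SLPI and CFD among their leading genes, were also the highest of the lung for COL4A2, LAMB1 and HSPG2, and the highest of the aorta for each of the 8 genes other than COL15A1. COL4A2 reached 183 CPM there in the lung, against 130.0 CPM in the lowest cluster, and 81.3 CPM in the aorta, against 58.1 CPM. HSPG2 reached 62.9 CPM against 46.6 CPM in the lung and 43.5 CPM against 31.9 CPM in the aorta. LAMA4 had its highest lung value, 210.2 CPM, in the cluster led by TOP2A and CENPF, where it was 1.45-fold (1.33 to 1.57) above the lowest cluster. The aorta cluster led by ASPM and TOP2A was at 146 CPM of LAMA4, within the 126 to 158 CPM of the other aorta clusters. The clusters with SLPI and CFD also had the highest median mitochondrial share of the endothelial-like clusters, 6.65% in the lung and 7.26% in the aorta, and the part of this in their levels was not tested.

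**Figure D4:**
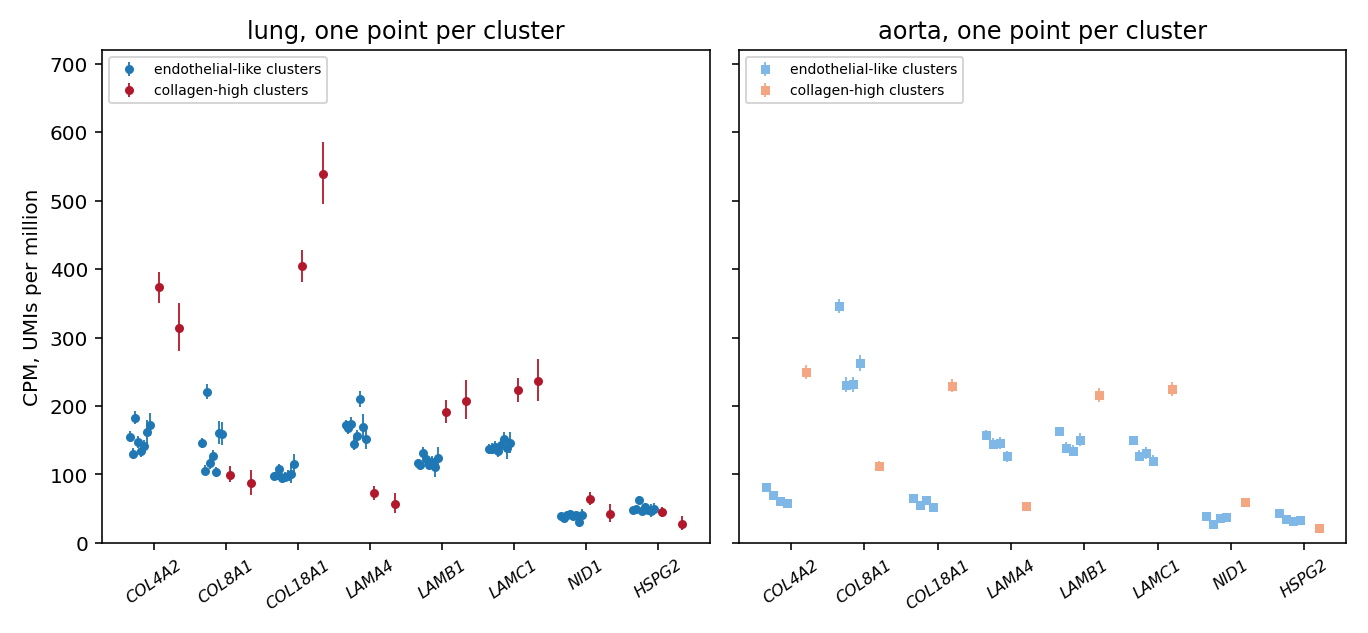
Level of 8 genes in CPM in each endothelial-like and collagen-high cluster of the lung (left) and the aorta (right), with exact 95% Poisson intervals. In both libraries the COL4A2 and COL18A1 points of collagen-high clusters lie above all endothelial-like points and the LAMA4 points lie below them.

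The depth of the aorta library allowed a view of single cells at 20000 UMIs, in 591 endothelial-like and 127 collagen-high cells. A gene that varies by counting alone has a variance equal to its mean. COL8A1 had a mean of 5.61 UMIs per endothelial-like cell, from 1 at the 10th percentile to 11 at the 90th and 30 at most, and its variance was 3.48 times its mean. For the other 8 genes in these cells the ratio ran from 0.986 to 1.62. COL8A1 also had the highest mean, and the ratio rises with the mean at equal relative variation. It therefore does not rank the genes, and COL18A1 had a ratio of 1.60 at a mean of 1.19 UMIs. LAMA4 had a mean of 3.03 UMIs and a UMI in 91.5% of these cells.

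In the collagen-high cells at that depth, COL15A1 was present in 98.4% of cells, with a mean of 6.04 UMIs and 2 to 10 UMIs between the 10th and 90th percentiles. COL4A2 and COL18A1 had means of 4.92 and 4.69 UMIs and each was present in 96.9% of cells. COL15A1 transcripts were thus seen in nearly every aorta collagen-high cell at this depth. HSPG2 was seen in 29.9% of them, with a mean of 0.402 UMIs.

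**Figure D5:**
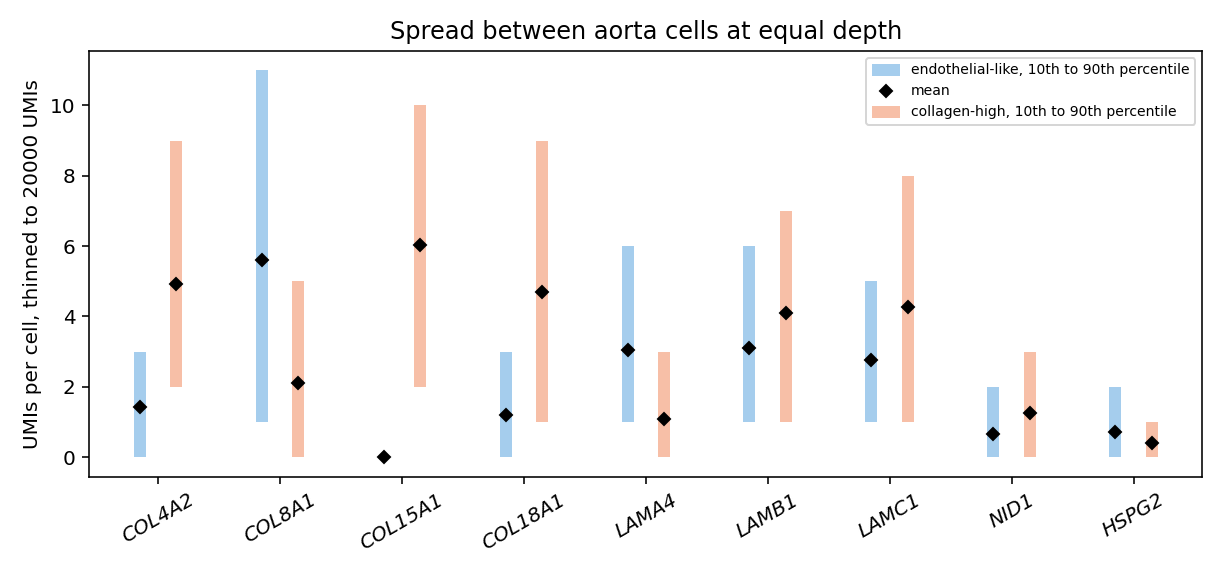
UMIs per aorta cell after thinning to 20000 UMIs, with bars from the 10th to the 90th percentile of cells and diamonds at the mean. COL8A1 spans 1 to 11 UMIs in endothelial-like cells, and COL15A1 spans 2 to 10 UMIs in collagen-high cells and has its percentiles at 0 in endothelial-like cells.

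Endothelial-like cells of the lung were next set against those of the aorta. COL4A2 was 2.16-fold (2.06 to 2.26) higher in the lung, at 150.6 against 69.7 CPM, and was the 1 gene past the fold upward of the 8 that reached 20 CPM, COL15A1 being under it, while 1.32% of the 5907 features at the floor were. COL8A1 was 2.002-fold (1.94 to 2.06) higher in the aorta, at 279.6 against 139.6 CPM, and was the 1 gene past it downward, beside 3.15% of features. Its fold sat on the line, and it dropped below 2-fold under 5 of the other ways of forming the classes or totals. COL18A1 was 1.67-fold (1.59 to 1.76) and HSPG2 1.38-fold (1.29 to 1.47) higher in the lung. Both differences were smaller with an upper limit of 5000 detected genes per cell. Their log2 folds were then 0.35 and 0.06, in place of 0.74 and 0.46. Under that limit, the 105 aorta endothelial-like cells with 1% or more mitochondrial UMIs held 88.0 CPM of COL18A1 and 53.3 CPM of HSPG2. The part of depth in these folds was not tested.

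The other genes lay closer together. LAMA4 was 1.16-fold (1.12 to 1.203) and NID1 1.12-fold (1.04 to 1.2004) higher in the lung, and LAMB1 was 1.25-fold (1.21 to 1.30) higher in the aorta. LAMC1 had a ratio of 1.04 (1.00 to 1.08). COL15A1 stood at 1.25 CPM in the lung and 0.879 CPM in the aorta. COL4A2 and COL8A1 thus differed in opposite directions between the cultures. All 8 lung clusters, from 130.0 to 183 CPM, were above all 4 aorta clusters, from 58.1 to 81.3 CPM, for COL4A2, and all were below them for COL8A1, at up to 221 CPM against at least 230.8 CPM.

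The collagen-high cells of the lung and aorta differed by less than 2-fold for each of the 9 genes when the lung clusters were pooled, where 1.73% of 5831 features were past the fold upward and 2.28% downward. COL18A1 came nearest, at 440 CPM in the lung against 229.8 CPM in the aorta, 1.92-fold (1.79 to 2.04). Against the aorta cluster, lung cluster 7 was 1.76-fold (1.64 to 1.89) and cluster 10 was 2.35-fold (2.13 to 2.58) higher for COL18A1. HSPG2 was 2.01-fold (1.59 to 2.53) higher in cluster 7 and 1.24-fold (0.802 to 1.85) in cluster 10, from 127 and 28 UMIs, and among cells with under 5000 detected genes its pooled log2 fold of lung over aorta was 0.07 in place of 0.85. COL4A2 was 1.43-fold (1.34 to 1.54) higher in the lung, with 1.497 in cluster 7 and 1.26 in cluster 10.

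COL15A1, LAMB1, LAMC1 and NID1 lay closest between the collagen-high cells of the tissues, with ratios of lung to aorta of 1.13 (1.05 to 1.21), 0.906 (0.831 to 0.986), 1.01 (0.934 to 1.10) and 0.977 (0.832 to 1.14). Clusters 7 and 10 apart gave 1.10 and 1.21 for COL15A1, 0.886 and 0.960 for LAMB1, and 0.997 and 1.06 for LAMC1. For NID1 they parted, at 1.07 (0.903 to 1.27) and 0.706 (0.505 to 0.964). The aorta values rest on deep cells. With an upper limit of 5000 detected genes per cell, a new clustering named 21 aorta cells collagen-high, and COL4A2 stood at 408 CPM in them against 246 CPM in the 126 collagen-high cells with 5000 or more genes. The lung to aorta log2 fold of COL4A2 in collagen-high cells was then -0.18 in place of 0.52. NID1 was also higher there, at 118 CPM in the 21 cells against 58.4 CPM in the 126.

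A small aorta class stood apart from both. The 64 EndMT-like cells, with raised smooth muscle markers and ACTA2 at 2072 CPM but a median mitochondrial share of 0.0987% and 3829 UMIs, held all 9 genes at or under 16.2 CPM. These levels rest on few UMIs, since COL18A1, the highest, had 5 UMIs and an interval of 5.27 to 37.9 CPM. Their cluster held 0 of the 11 endothelial markers, with PECAM1 at 5 UMIs. NID1 had 0 UMIs, which allows up to 9.74 CPM when a count of 0 is taken to allow 3 UMIs, and up to 11.98 CPM by the exact Poisson interval. COL1A1 was at 146 CPM in them. The part of their low depth and low mitochondrial share in these values was not tested. High ACTA2 was not particular to this class, since it stood at 1527 CPM in aorta and 1161 CPM in lung collagen-high cells. The EndMT-like cluster had 5 raised smooth muscle markers, as did the aorta collagen-high cluster and lung cluster 7.

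The listed genes of 4 groups place these genes among other parts of basement membrane biology, read from the collagen-high over endothelial-like comparison. Their counts stand beside the same shares of all features, 6.67% upward and 9.74% downward in the lung and 7.92% and 12.7% in the aorta. Of 16 other basement membrane chains, 4 reached 20 CPM in the lung, and 1 was past the fold upward and 1 downward, as in the aorta, with median log2 folds of 0.52 in the lung and -0.60 in the aorta. SPARC, a collagen-binding protein, was 3.98-fold higher in the lung collagen-high cells, at 687 against 172 CPM, and 2.72-fold higher in the aorta. LAMA1, another laminin α chain, was 72.0 CPM in lung endothelial-like cells against 5.16 CPM in collagen-high cells, and 60.5 against 0.344 CPM (3 UMIs) in the aorta, so that it shared the direction of LAMA4. NID2, the other nidogen, was 1.65-fold (1.497 to 1.82) higher in the lung collagen-high cells and 0.763-fold (0.721 to 0.807) in the aorta.

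Among 16 genes of collagen assembly and crosslinking, 14 reached the floor in each library, of which 3 were past the fold upward and 0 downward in the lung, and 5 and 1 in the aorta. The median log2 folds were 0.72 and 0.58. P4HA3, a prolyl hydroxylase subunit, was 20.2-fold higher in the lung collagen-high cells and 22.2-fold in the aorta, and LOXL1, a lysyl oxidase, was 12.8-fold and 6.66-fold higher. PLOD1 and PLOD2, lysyl hydroxylases, were at 0.711-fold and 0.732-fold in the lung, and at 0.824-fold and 0.170-fold in the aorta.

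Of 11 proteases and inhibitors, 4 of 6 at the floor were past the fold upward and 2 downward in the lung, and 3 and 3 of 7 in the aorta, with median log2 folds of 1.89 and 0.85. BMP1, which trims procollagens and laminin chains, was 9.59-fold and 4.98-fold higher in collagen-high cells, and TIMP1 was 5.44-fold and 5.30-fold higher. TIMP3, a matrix-bound inhibitor, and MMP2, a protease that cleaves type IV collagen, were higher in endothelial-like cells, by 8.20-fold and 2.57-fold in the lung and 25.4-fold and 4.20-fold in the aorta.

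Of 13 receptors, 2 of 8 at the floor were past the fold upward and 2 downward in the lung, and 3 and 3 of 10 in the aorta, with median log2 folds of 0.04 and 0.45. SDC1, a heparan sulfate proteoglycan, was 20.7-fold and ITGA1, a collagen-binding integrin chain, 3.01-fold higher in lung collagen-high cells, and 5.12-fold and 3.85-fold in the aorta. BCAM, a laminin α5 receptor, and ITGA2, another collagen-binding integrin chain, were 7.47-fold and 5.99-fold higher in lung endothelial-like cells, and 35.1-fold and 2.16-fold in the aorta, where ITGA2 was under 20 CPM in both classes.

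The genes whose levels ran most like a member over clusters were sought among 4189 genes, over the 14 clusters left after the mean of each library and class had been taken off, as Pearson's r of log2(CPM + 1). The clusters of a library share its preparation and depth, so r is a description. COL8A1 was nearest to SPON2, a secreted matrix protein, at 0.96, and ITGB5, an integrin chain, at 0.93. COL4A2 was nearest to PAPPA, a secreted protease, at 0.96 and CHPF2, which takes part in chondroitin synthesis, at 0.95. HSPG2 was nearest to PRSS12, ATP6AP1 and ENG, the last a co-receptor of TGF-β on endothelium, each at 0.93. COL15A1 had lower values, with ACTA2, RELA and COL1A1 each at 0.73. In the endothelial-like clusters COL15A1 stood at 2.53 CPM or less, from 5 to 14 UMIs per cluster, so its r rests largely on values near 0.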

How the data were processed

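The authors deposited raw counts of UMIs for every gene in every cell, made with Cell Ranger 3.0.2 on Sscrofa11.1 and not normalized. The number of genes and UMIs per cell showed that no limit on cells had been applied. The upper limit of 5000 genes in the study's methods left 246 aorta cells, so it was used as an alternative only. Lists and genes were chosen with earlier results of these data known. Each library was clustered with Seurat 5.3.0 in R 4.3.3 (log-normalization to 10000 UMIs, 2000 variable genes of which 1931 in the lung and 1936 in the aorta remained after markers, the genes described and other matrix genes were removed, 20 principal components, resolution 1). A marker was raised at 20 CPM and 2-fold over all other cells of its library, and an endothelial marker was held where a cluster had at least 0.25 of its top cluster's level. Scrublet, run in scanpy 1.11.5, called 9 aorta cells (0.942%) and 2 lung cells (0.0350%), which for the lung was taken to mean that it had not worked, and no doublets were removed. UMIs were summed over classes, and folds were tested on simulated data with scipy 1.17.1. Each alternative changed 1 choice. All genes were named in each class and cluster, and from the lists the 2 largest folds each way in the lung comparison, at 20 CPM or more. The clusters singled out in the text were chosen after their values were seen. Genome places come from RefSeq by symbol, while the counts rest on Ensembl models, so gene ends may differ.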

Additional observations from a re-analysis of the deposited data

Results flagged for a closer look

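NID2, the nidogen that was not among the genes described first, went opposite ways in the 2 libraries. It was higher in lung collagen-high than lung endothelial-like cells, with a ratio of 1.65, and lower in aorta collagen-high than aorta endothelial-like cells, with a ratio of 0.763. The difference between the libraries was not tested, since each tissue has 1 library. In endothelial-like cells NID2 was at 72.3 CPM in the lung and 218.5 CPM in the aorta, and in collagen-high cells at 119 and 167 CPM.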

How the results depend on the processing

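Each result was recomputed under 16 other settings, and under 5 more chosen after seeing the data (collagen-high cells without a PECAM1 UMI, endothelial-like clusters without raised phase markers, the shallow unnamed clusters joined to the endothelial-like cells, and the larger or smaller lung collagen-high cluster alone). The alternative without cells called doublets was run for the aorta only. At 1.5-fold, 5 genes were higher in collagen-high cells in the lung and 5 in the aorta (13.0% and 17.4% of all features), 3 were lower in the aorta with HSPG2 added (20.0%), and 2 were higher in lung than aorta in endothelial-like cells and 2 in collagen-high cells (3.64% and 5.76%). At 3-fold, COL4A2 left the lung genes higher in collagen-high cells, 2 remaining (4.06%), those lower numbered 0 in the lung and 0 in the aorta (5.63% and 8.05%), and those higher and lower in lung than aorta endothelial-like cells 0 and 0 (0.593% and 1.19%). COL8A1, the 1 gene lower in lung than aorta endothelial-like cells, was under the line, leaving 0, with 10 principal components, with classes set by marker levels in each cell, with totals without mitochondrial and ribosomal genes, without clusters with raised phase markers, and with the shallow clusters joined. In collagen-high cells of lung over aorta, 1 gene was past the line upward with classes set by marker levels (COL18A1), without PECAM1 UMIs (COL18A1), in the larger lung cluster (HSPG2) and in the smaller one (COL18A1), and 1 downward (NID1) under the limit of 5000 detected genes.

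Of the log2 folds of single genes under alternatives, 494 stayed within the counting interval and 65 moved beyond it. Another 8, all between lung and aorta, changed sign from a main interval that excluded 0. Sign changes of folds whose main interval spanned 0 are not among these 8. In endothelial-like cells COL15A1 was such a fold, at -1.18 under the limit of 5000 detected genes in place of 0.51. In collagen-high cells LAMC1 and NID1 were others, reaching -0.075 and 0.10 from 0.018 and -0.033. The limit of 5000 detected genes gave -0.17 for LAMC1 and -0.49 for NID1 in endothelial-like cells. In collagen-high cells it gave -0.18 for COL4A2 and 0.18 for LAMB1. Of the 159 aorta endothelial-like cells it left, 54 had under 1% mitochondrial UMIs. These 54 held LAMC1 at 13.4 CPM (2 UMIs) and NID1 at 6.72 CPM (1 UMI). The other 105 held 176 and 61.8 CPM, against 134 and 34.8 CPM in the 578 aorta endothelial-like cells with 5000 or more genes. LAMC1 was -0.016 with each cell weighted equally and -0.024 without phase clusters. COL15A1 was -0.033 after thinning and LAMA4 -0.20 without PECAM1 UMIs, both in collagen-high cells. Under the 5000-gene limit the HSPG2 log2 fold in collagen-high cells was 0.07 in place of 0.85. The cause was not tested. No paired analysis was possible because each tissue has 1 library.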
